A study of Homo sapiens with 16 samples.

Results

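Translation initiation and elongation factors are the proteins that load an mRNA onto the ribosome, find its start codon and then move the ribosome along it. Their genes were described across 16 RNA libraries of NOMO-1, a line grown from a human acute monocytic leukaemia. The genes were taken by name: the 61 symbols that begin with EIF or EEF and a digit, leaving out hyphenated symbols, the eIF2 kinases EIF2AK1 to EIF2AK4, EIF1AY and EEF1E1. Of these, 58 reached 1 TPM (an abundance of transcripts, corrected for their length and for the library total) in at least 3 libraries, out of 26830 entries in the deposited table. EEF1A2, EIF4E1B and EIF3IP1 did not reach that level, with highest values of 0.17, 0.13 and 0 TPM. The 58 include 1 pseudogene, EEF1DP3.

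Poly(A)-enriched RNA was sequenced from 5 groups. In the compound experiment 4 libraries came from cells given the solvent DMSO, 3 from cells given CS1 at 100 nM and 3 from cells given CS2 at 500 nM, each for 72 h. The series presents both compounds as inhibitors of FTO, an enzyme that takes the m6A mark off RNA. The labels name the compounds as CS1 and CS2 and nothing more. From general knowledge of the study, which was not checked here, CS1 is bisantrene and CS2 is brequinar, a drug also known for blocking DHODH in pyrimidine synthesis. In the hairpin experiment the cells of 3 libraries carried a lentiviral hairpin against FTO (shFTO) and those of 3 a control hairpin (shNS). Both went through puromycin (1 µg/ml, 1 week), which the solvent cells did not. All groups are the same line, and the series text calls the replicates biological.

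Initiation begins when eIF2, bound to GTP and the initiator tRNA, joins the small ribosomal subunit together with eIF1, eIF1A, eIF5 and the large scaffold eIF3. The eIF4F complex (the cap-binding protein eIF4E, the scaffold eIF4G and the helicase eIF4A) brings the capped mRNA, and eIF5B joins the large subunit once the start codon is found. In elongation eEF1A delivers each charged tRNA, the eEF1B complex reloads eEF1A with GTP, and eEF2 moves the ribosome on. Many of these mRNAs belong to the TOP class, which begin with a cytosine and a run of pyrimidines and whose use by ribosomes is controlled by the growth kinase mTORC1, a pathway often active in acute leukaemia.

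FTO itself read 31.3, 30.8 and 32.8 TPM in shNS, 8.12, 7.49 and 8.35 TPM in shFTO, and between 29.6 and 35.9 TPM in every library of the compound experiment. Replicates of a group correlated with r from 0.988 to 0.993 over all tested entries, and no library stood apart. TPM carry no read counts, so the depth behind each value is unknown. Of 10 marker genes of the monocytic line, CD14 and MPO were below 1 TPM in every library. LYZ had by far the widest range, from 70.0 to 2579 TPM over all libraries, and CD68 ran from 76.8 to 555. CD33 (65.8 to 96.0), SPI1 (114 to 178) and CEBPA (182 to 310) varied less. The summed level of that list was 681 to 714 TPM with DMSO, 1044 to 1053 with CS1, 1201 to 1249 with CS2, 871 to 894 in shNS and 3018 to 3610 in shFTO, and its part in the differences below was not tested. A lymphocyte list was carried by NKG7 (234 to 485 TPM) with CD3D, CD3E and MS4A1 below 1 TPM, and it stood at 263 to 281, 460 to 494, 429 to 451, 446 to 466 and 240 to 257 TPM in the same order of groups. Erythroid, megakaryocyte, epithelial and fibroblast lists summed to at most 1.78 TPM in any library. In such bulk RNA, fewer cells of a type and less RNA per cell cannot be told apart.

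With DMSO the translation factors made up 2.06% ± 0.0634 (SD, n = 4) of all TPM. Here and below, a value after ± is the SD over the libraries of a group (n = 4 for DMSO and n = 3 for the others). The elongation factor EEF1A1 was the most abundant of the 58 at 3513 ± 101 TPM, rank 20 among all entries, followed by EEF2 (rank 54) and EEF1G (rank 78). EIF5A at 1075 ± 60.6 TPM and EIF4A1 at 947 ± 45.5 TPM came next among the EIF genes, with ranges over the 4 libraries that do not overlap. EIF4E, the cap-binding protein, stood far lower at 48.6 ± 0.902 TPM. EIF3C was at the bottom with 0.39 to 1.74 TPM, beside 314 ± 7.02 TPM for its near-identical neighbour EIF3CL. Reads of this pair cannot be assigned with certainty, and the EIF3CL value may hold those of both genes.

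CS2 went with the widest change in this gene set, and it was mostly downward. Against DMSO, 38 of the 58 genes fell and 11 rose at a limma adjusted p below 0.05, where 24.6% of the 14951 entries tested fell and 49.5% rose. In cells with the FTO hairpin 36 fell and 9 rose against the control hairpin, where 24.5% of all entries fell and 31.9% rose. CS1 went with a mixed picture: 21 fell and 15 rose, against 14.3% and 37.5% of all entries. Fold changes are given throughout as differences of mean log2(TPM + 1).

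The median log2 fold change of the 58 genes was -0.29 with CS2, -0.21 with shFTO and -0.013 with CS1. The same median over all entries tested was 0.20, 0.072 and 0.092. Rescaling the libraries by median-of-ratios moved the median of all entries to 0.012 for CS2 and -0.020 for CS1, and quantile normalization moved them to -0.00052 and -0.035. Relative to the median of all entries, the translation factors stood at -0.49, -0.52 and -0.48 with CS2. These are the values as deposited, after median-of-ratios and after quantile normalization. In the same order the factors stood at -0.10, -0.12 and -0.057 with CS1 and at -0.28, -0.29 and -0.15 with shFTO. The split of calls moved with the scaling: 3 rose and 46 fell with CS2 after median-of-ratios and 3 rose and 45 fell after quantile normalization, while CS1 gave 3 and 33, and 8 and 29. For shFTO the splits were 8 and 35, and 9 and 33. The same genes fell under all 3 scalings for 38 of 38 with CS2, 20 of 21 with CS1 and 33 of 36 with shFTO, and the same genes rose under all 3 for 3 of 11, 3 of 15 and 8 of 9. Without CS1 replicate 1, or without CS1 replicate 2, 13 genes fell with CS1 in place of 21. CS1 replicate 3 was the highest of its group in 17 of the 21 genes that fell with CS1, and shFTO replicate 3 in 30 of the 36 that fell with shFTO.

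**Figure D1:**
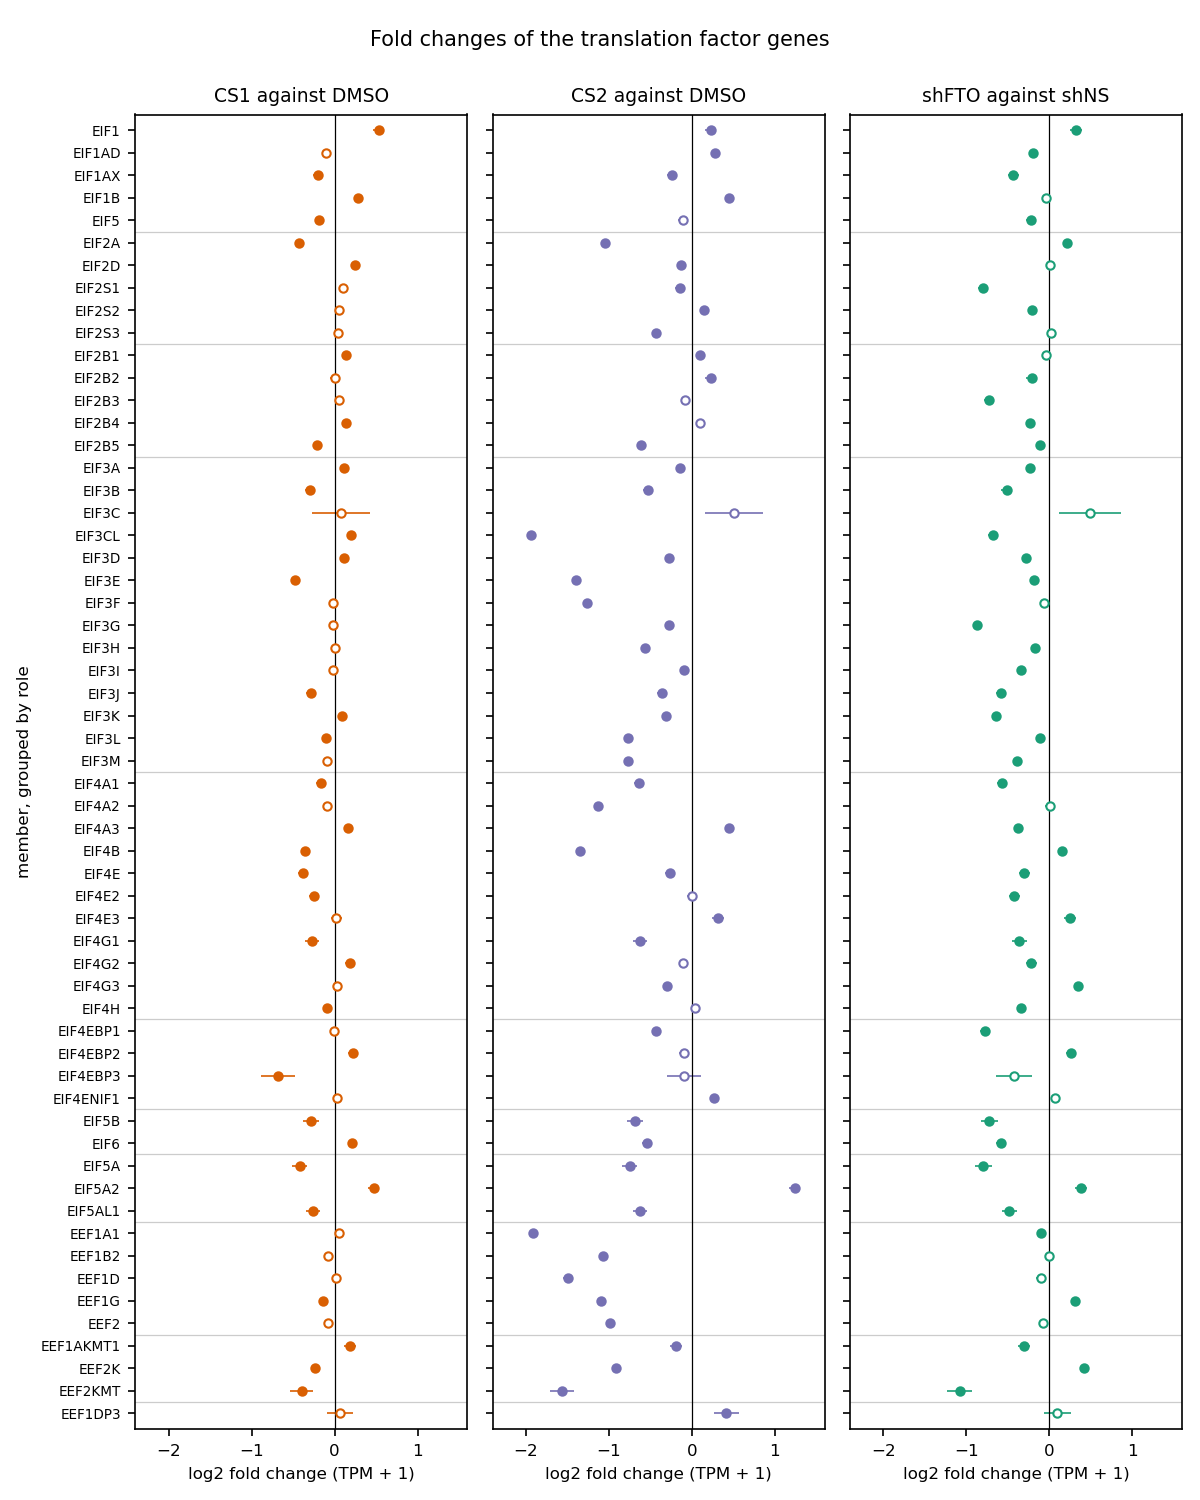
Log2 fold change (x axis, on log2 of TPM + 1, bars 1 SE) of each of the 58 genes (y axis, grouped by role) for CS1 against DMSO, CS2 against DMSO and shFTO against shNS; filled points passed at a limma adjusted p below 0.05. With CS2 the elongation factors sit between -0.99 and -1.91, EIF3CL at -1.94 and EIF5A2 alone above 1.

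Summed over the 5 elongation factor genes, the level was 8294 to 8981 TPM in the DMSO libraries, 8235 to 8860 with CS1 and 3330 to 3538 with CS2. The CS2 libraries lie far below the others, and the CS1 and DMSO ranges overlap. In the hairpin pair the sum was 10210.4 to 10575 TPM in shNS and 9908 to 10775 TPM in shFTO, with overlapping ranges. The 45 genes counted as initiation factors were taken by name, as all EIF genes other than the eIF4E binders. They include EIF5A (826 ± 17.7 TPM in shNS and 481 ± 88.7 TPM in shFTO), EIF5A2, EIF4A3 and EIF6, whose differing roles are given below. Together the 45 genes summed to 11432 ± 321 with DMSO, 10941 ± 331 with CS1, 8455 ± 19.7 with CS2, 10315 ± 202 in shNS and 8543 ± 185 TPM in shFTO (SD, n = 4 for DMSO and n = 3 elsewhere). For these genes the shFTO libraries lie below the shNS libraries and the CS2 libraries below the DMSO libraries, without overlap. The log2 ratio of the group means was -0.44 for CS2 and -0.27 for shFTO in the 45 EIF genes. In the 5 elongation factor genes it was -1.35 for CS2 and -0.000484 for shFTO. With median-of-ratios scaling these were -0.66, -0.32, -1.57 and -0.050.

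**Figure D2:**
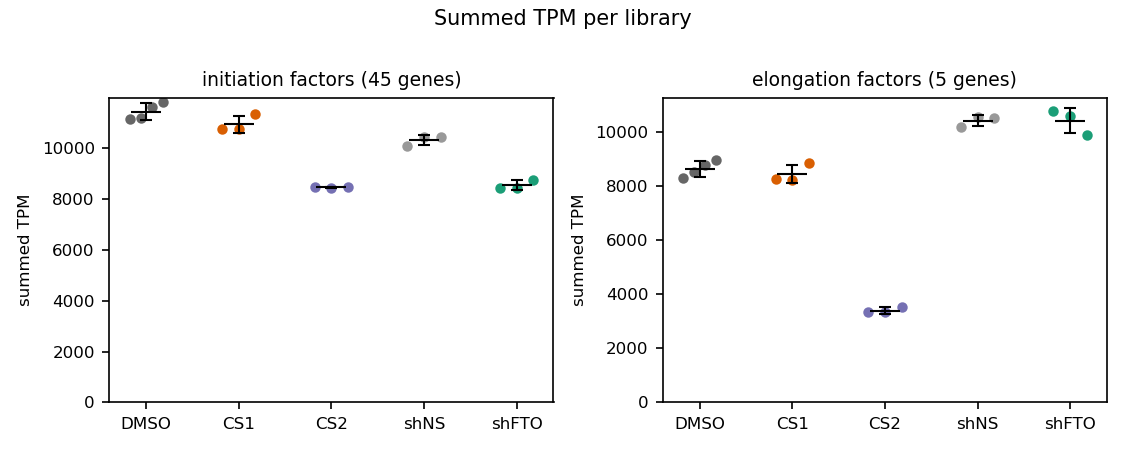
Summed TPM per library (y axis, from 0) of the 45 EIF genes counted as initiation factors and the 5 elongation factor genes in the 5 groups (x axis); points are libraries, bars the mean and SD. The elongation sum is 3401 TPM on average with CS2 against 8649 with DMSO, while shNS and shFTO overlap.

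The start of each gene was read from RefSeq promoter sequences (GRCh38.p14), which held 46 of the 58 genes; the others were EEF1AKMT1, EEF1D, EEF1DP3, EEF2KMT, EIF2S2, EIF3A, EIF3CL, EIF3E, EIF3G, EIF3H, EIF3L and EIF4EBP1. The windows below run from 20 bases before the annotated start base to 29 bases after it. They are shown because, among the 46 genes with a sequence, those that fell furthest with CS2 often share the feature marked in capitals. EIF3CL, EEF2KMT, EEF1D and EIF3E also had deep falls with CS2, and their starts could not be read. Capitals mark the pyrimidine run of a TOP-like start, defined as C at the start base, read on the gene's strand, followed by at least 4 bases that are C or T. The first 6 genes have such a start and the last 4 do not. The genes printed were picked with their fold changes known, and these 6 are among the deeper falls with CS2. EIF2D, EIF2S3, EIF3D and EIF3K have such a start too, fell less with CS2 and are not printed. Over all members with such a start the log2 fold changes with CS2 ran from -1.91 to -0.14.
EEF1A1 (chr6:73521003-73521052, minus strand): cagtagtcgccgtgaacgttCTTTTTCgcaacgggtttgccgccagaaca
EEF2 (chr19:3985434-3985483, minus strand): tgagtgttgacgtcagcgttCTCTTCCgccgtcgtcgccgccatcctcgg
EIF4B (chr12:53006436-53006485, plus strand): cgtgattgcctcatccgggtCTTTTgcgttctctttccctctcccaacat
EIF4A2 (chr3:186783557-186783606, plus strand): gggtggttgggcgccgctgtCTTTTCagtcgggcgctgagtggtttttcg
EIF3F (chr11:7987317-7987366, plus strand): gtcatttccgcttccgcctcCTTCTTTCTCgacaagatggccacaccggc
EIF2A (chr3:150546767-150546816, plus strand): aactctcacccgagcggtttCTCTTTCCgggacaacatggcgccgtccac
EEF1G (chr11:62573862-62573911, minus strand): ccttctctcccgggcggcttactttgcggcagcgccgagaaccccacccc
EEF2K (chr16:22206258-22206307, plus strand): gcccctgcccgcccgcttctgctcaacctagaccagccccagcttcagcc
EIF4A3 (chr17:80147099-80147148, minus strand): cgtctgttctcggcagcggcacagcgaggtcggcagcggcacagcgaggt
EIF5A2 (chr3:170908608-170908657, minus strand): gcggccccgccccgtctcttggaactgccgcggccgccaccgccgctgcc

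A TOP-like start was found at 12 of the 46 genes (26.1%): EEF1A1, EEF1B2, EEF2, EIF2A, EIF2D, EIF2S3, EIF3D, EIF3F, EIF3K, EIF3M, EIF4A2 and EIF4B. Such a start is present in 4.07% of all 35116 RefSeq promoters, and in 7.29% of the tested entries with a promoter. EEF1B2 has the run at the more downstream of its pair of annotated starts, and there it is 16 bases long. With CS2 all 12 fell, with a median log2 fold change of -1.02, while 16 of the other 34 genes fell, with a median of -0.10. Among all tested entries with a TOP-like start 278 of 748 (37.2%) fell and their median was 0.081, beside 24.0% and 0.22 for the other tested entries with a promoter. In the FTO hairpin cells 4 of the 12 fell and 2 rose, with a median of -0.032, while 22 of the other 34 fell and 7 rose, with a median of -0.27. There 204 of the 748 tested entries with a TOP-like start (27.3%) fell and 272 rose. Of the 9510 with another start 2578 (27.1%) fell and 3198 rose. With CS1, 2 of the 12 fell and 3 rose (median -0.049) and 16 of the other 34 fell and 9 rose (median -0.051). Over all tested entries 151 of 748 with a TOP-like start (20.2%) fell and 299 rose with CS1. Of the 9510 with another start 1371 (14.4%) fell and 3916 rose. These counts are descriptions of start bases as annotated, with no test, and the transcripts in use in these cells were not mapped.

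The E-box CACGTG is a palindrome that MYC and its partners can bind. In the 250 bases before the start it was present in 12 of the 46 genes (26.1%). The share was 6.34% of all promoters and 11% of tested entries with a promoter. The 12 genes include EIF4E, EIF4G1, EIF4A3, EIF5A2 and EEF2K, and EIF3F, EIF3K and EIF4B, which also have a TOP-like start. With CS2, 6 of the 12 fell and 3 rose (median -0.18), and 22 of the other 34 fell and 6 rose (median -0.29). Over all tested entries 24.6% fell and 49.5% rose with CS2. That share was not split by the motif, so these counts have no matching background. With shFTO the medians were -0.32 with the motif and -0.21 without it.

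**Figure D3:**
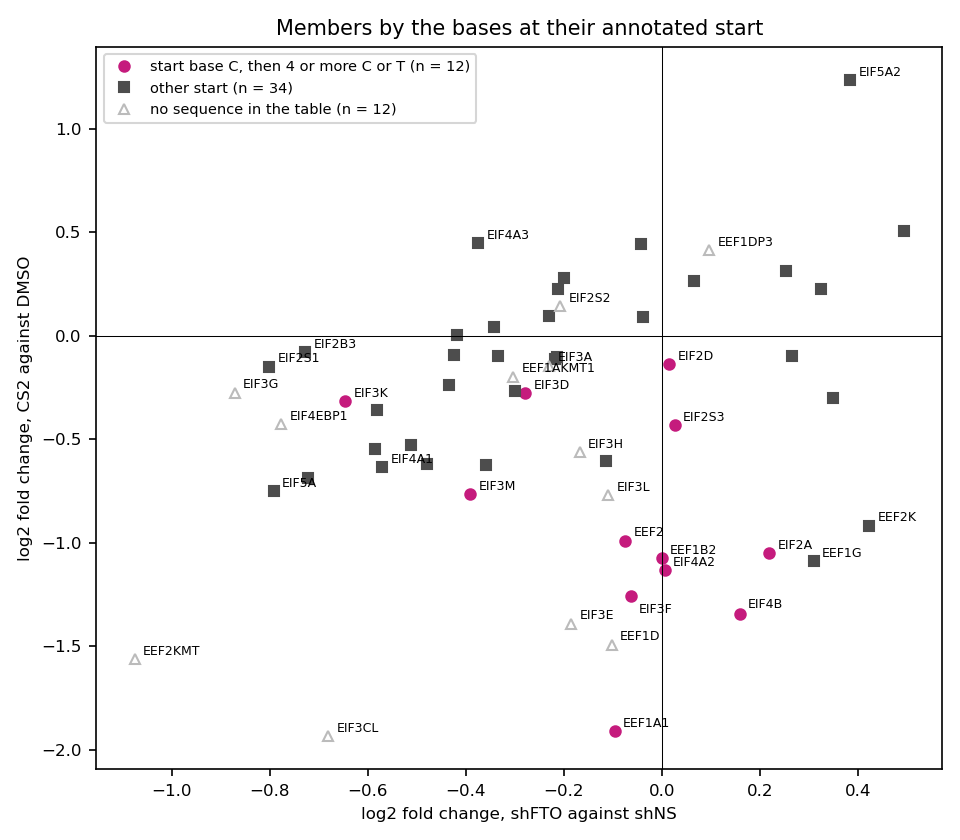
Log2 fold change with CS2 against DMSO (y axis) and with shFTO against shNS (x axis) for the 58 genes; magenta circles have a TOP-like start (n = 12), dark squares another start (n = 34) and open triangles no sequence in the table (n = 12). All 12 magenta points lie below 0 on the y axis, with a median of -1.02, and their median on the x axis is -0.032.

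The elongation factors proper fell together with CS2: 5 of 5 passed under each of the 3 scalings. Their median log2 fold change was -1.09 as deposited, -1.31 after median-of-ratios and -1.17 after quantile normalization. EEF1A1, which carries charged tRNAs to the ribosome (chr6:73515750-73523797 in GRCh38, GENCODE 29), read 3380.3, 3496, 3563 and 3614 TPM with DMSO. It read 3606, 3579 and 3773 with CS1 and 920.3, 922 and 959 with CS2. The CS2 libraries lie far below the DMSO range and the CS1 libraries at its upper end or above. With CS2 the log2 fold change was -1.91 (SE 0.0366, adjusted p = 1.12e-14). In the hairpin cells EEF1A1 was 4328, 4479.9 and 4502 TPM in shNS and 4249, 4272 and 3937 in shFTO. That small fall (log2 fold change -0.096, adjusted p = 0.0487) did not pass after median-of-ratios (adjusted p = 0.0531) or quantile normalization (adjusted p = 0.0547). Nor did it without shNS replicate 2 (adjusted p = 0.123), shNS replicate 3 (0.135) or shFTO replicate 3 (0.175). With CS1 the change was 0.056 (adjusted p = 0.218), which turned to -0.075 after median-of-ratios (adjusted p = 0.292) and passed as a rise of 0.19 after quantile normalization (adjusted p = 0.00101).

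EEF2, the translocase that moves the ribosome by a codon (chr19:3976056-3985469), stood at 2219, 2243, 2304 and 2384 TPM with DMSO, 2069, 2071 and 2348 with CS1 and 1132, 1132 and 1189.7 with CS2. The CS2 libraries are tightly grouped below the DMSO libraries, with a log2 fold change of -0.99 (SE 0.0489, adjusted p = 8.26e-11); after quantile normalization it was -0.48 and still passed. CS1 replicate 3 lies within the DMSO range and its 2 partners below it. EEF2 did not pass with CS1 (log2 fold change -0.083, adjusted p = 0.172); it passed as lower without CS1 replicate 3 (-0.14, adjusted p = 0.0158) and after median-of-ratios (-0.21, adjusted p = 0.0187), and quantile normalization turned the sign (0.039). The shNS values of 2800.5, 2919 and 2838 TPM and the shFTO values of 2837, 2761 and 2534 overlap (log2 fold change -0.075, adjusted p = 0.24).

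The 3 subunits of the eEF1B exchange complex shared the fall with CS2. EEF1D, an exchange subunit, read 197, 203, 222 and 228 TPM with DMSO and 69.0, 73.3 and 82.5 with CS2, a change of -1.49 (SE 0.0571, adjusted p = 5.34e-12). EEF1B2, the other exchange subunit, read 866, 899.8, 982 and 999 and 429.8, 429 and 472 TPM (log2 fold change -1.08, adjusted p = 3.07e-11). EEF1G, the scaffold of the complex, read 1633, 1676, 1731 and 1757 TPM with DMSO, 1516, 1511 and 1607 with CS1 and 784, 774 and 835 with CS2. Of the 3, EEF1G was the one that rose with the FTO hairpin, from 1787, 1850.1 and 1857 to 2359, 2288 and 2165 TPM (log2 fold change 0.31, SE 0.0423, adjusted p = 1.88e-05), without overlap. EEF1B2 at 1072 ± 16.5 and 1071 ± 26.0 TPM and EEF1D at 243 ± 2.59 and 227 ± 5.18 TPM did not pass in that comparison. With CS1, EEF1G fell by 0.14 on the log2 scale as deposited (adjusted p = 0.00902) and did not pass after quantile normalization (-0.012, adjusted p = 0.717). EEF1B2, EEF1G, EIF4B, EIF4A2, EIF4EBP3 and some others named below fall outside the rule for named genes and were chosen after their values were seen.

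**Figure D4:**
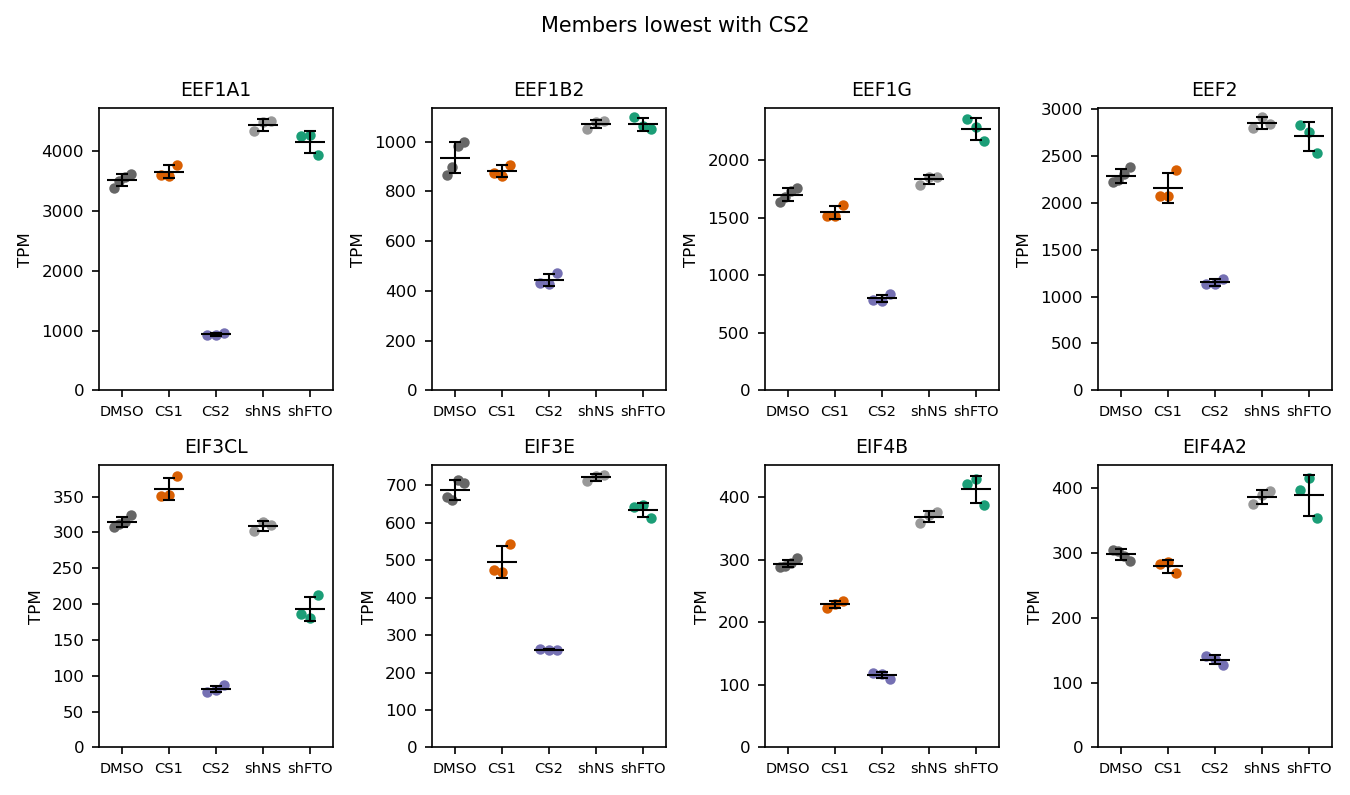
TPM per library (y axis, from 0) in the 5 groups (x axis) of 8 genes that were low with CS2; points are libraries, bars the mean and SD. EEF1A1 falls from a mean of 3513 ± 101 with DMSO to 933 ± 21.8 TPM with CS2, and EEF1G and EIF4B are highest in the shFTO libraries.

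The enzymes that act on elongation factors split in the hairpin cells. EEF2K, the kinase that phosphorylates and slows eEF2 (chr16:22206282-22288732), stood at 23.6, 25.7, 24.9 and 23.5 TPM with DMSO, 20.1, 21.5 and 20.3 with CS1 and 12.3, 12.9 and 12.2 with CS2, so that every treated library lies below every solvent library. It fell with CS1 (log2 fold change -0.23, SE 0.0450, adjusted p = 0.000527) and with CS2 (log2 fold change -0.92, SE 0.0450, adjusted p = 7.76e-11) and rose from 21.3, 21.6 and 22.3 to 28.1, 30.4 and 30.1 TPM with the FTO hairpin (log2 fold change 0.42, SE 0.0481, adjusted p = 3.14e-06). EEF2KMT, a methyltransferase of eEF2 (chr16:5084304-5097808), was lower in all 3 comparisons. It read 12.4, 12.5, 14.4 and 14.1 TPM with DMSO, 9.14, 9.0 and 11.7 with CS1 and 3.44, 4.03 and 4.08 with CS2. The hairpin pair read 15.1, 15.2 and 13.2 in shNS and 5.79, 4.87 and 8.94 in shFTO. The falls with CS2 (log2 fold change -1.56, SE 0.141, adjusted p = 8.05e-08) and shFTO (log2 fold change -1.08, SE 0.151, adjusted p = 2.43e-05) were the larger ones. The fall with CS1 (log2 fold change -0.40, adjusted p = 0.0283) did not pass without DMSO replicate 3 or 4 or CS1 replicate 1 or 2 (adjusted p from 0.0624 to 0.106). EEF1AKMT1, a methyltransferase of eEF1A, was 19.1 ± 0.445 TPM in shNS and 15.3 ± 1.04 in shFTO (log2 fold change -0.30, adjusted p = 0.00357).

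The eIF3 scaffold genes were lower in both the CS2 and the hairpin comparison. With CS2, 13 of 14 fell (median -0.44), under each scaling, and with shFTO 12 of 14 fell (median -0.31), 11 of them under each scaling; none rose in either. EIF3C, at 0.37 to 3.01 TPM over the 16 libraries, passed in neither. With CS1, 4 rose and 4 fell as deposited, none rose and 9 fell after median-of-ratios, and 3 rose and 7 fell after quantile normalization.

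EIF3CL (chr16:28379579-28403879) had the deepest fall of the 58 genes with CS2. It stood at 308, 311, 314 and 324 TPM with DMSO, 351, 352 and 378 with CS1 and 77.9, 80.0 and 86.7 with CS2, a change of -1.94 (SE 0.0512, adjusted p = 1.89e-13) with CS2. All CS1 libraries lie above all DMSO libraries (log2 fold change 0.20, adjusted p = 0.00467), a rise that did not pass after median-of-ratios (0.067, adjusted p = 0.411). It also fell with shFTO, from 302, 315 and 310.0 to 186, 181 and 212 TPM (log2 fold change -0.68, SE 0.0548, adjusted p = 9.86e-08). EIF3E, another subunit, stood at 670.1, 660.0, 715 and 707, 473, 468 and 544 and 264, 259 and 261 TPM with DMSO, CS1 and CS2. The 3 groups form separate steps, with changes of -0.48 (SE 0.0463, adjusted p = 6.87e-07) for CS1 and -1.39 (SE 0.0463, adjusted p = 1.34e-12) for CS2. In the hairpin pair the fall of EIF3E from 721 ± 8.64 to 635 ± 19.7 TPM (log2 fold change -0.19, adjusted p = 0.00507) did not pass after quantile normalization (adjusted p = 0.137).

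EIF3F (chr11:7970251-8001862), whose TOP-like start is printed above, read 151, 155, 161 and 165 TPM with DMSO and 63.2, 66.5 and 66.4 with CS2 (log2 fold change -1.26, SE 0.0432, adjusted p = 1.77e-12), while its shNS and shFTO values of 219.8 ± 6.56 and 210.4 ± 11.3 TPM overlap. EIF3G, an RNA-binding subunit (chr19:10115017-10119918), shows the reverse weight. It was 261, 267 and 265 TPM in shNS and 145, 145 and 143 in shFTO (log2 fold change -0.87, SE 0.0474, adjusted p = 1.69e-09), against 236, 242, 266 and 265 with DMSO and 213, 209 and 202 with CS2 (log2 fold change -0.27, adjusted p = 4.59e-05). EIF3A, the largest subunit (chr10:119033670-119080823), changed by small amounts: 252, 244, 245 and 254 TPM with DMSO, 271, 269 and 267 with CS1 and 229, 225 and 222 with CS2. The hairpin pair read 203, 209 and 206 in shNS and 169, 174 and 183 in shFTO. The groups of each pair still do not overlap, and the changes were 0.11 (adjusted p = 0.00558), -0.14 (adjusted p = 0.000411) and -0.23 (adjusted p = 1.91e-05); the rise with CS1 turned to -0.020 after median-of-ratios. EIF3J, a loosely bound subunit, and EIF3K fell with the hairpin, with log2 fold changes of -0.58 and -0.65 (adjusted p = 1.48e-06 and 8.36e-10); an antisense entry at EIF3J held 6.09 to 15.9 TPM.

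Among the genes of eIF4F and its helpers 6 of 11 fell and 2 rose with CS2, 7 fell and 3 rose with shFTO, and 6 fell and 2 rose with CS1. Of these rises 1, 2 and none held under all 3 scalings, and the falls with CS2 were 9 and 8 after median-of-ratios and quantile normalization. The 1 rise that held with CS2 was that of EIF4A3, a related helicase counted in this group though it belongs to another complex, as given below. EIF4E, the cap-binding protein itself (chr4:98871684-98930637), was lower in all 3 comparisons: 48.9, 48.8, 49.4 and 47.3 TPM with DMSO, 36.7, 36.0 and 38.5 with CS1 and 43.6, 41.6 and 36.0 with CS2. The hairpin pair read 33.2, 35.5 and 35.1 in shNS and 25.9, 27.6 and 30.5 in shFTO. No treated library reaches its controls. The changes were -0.38 (SE 0.0616, adjusted p = 0.000105) for CS1, -0.27 (SE 0.0616, adjusted p = 0.00118) for CS2 and -0.30 (SE 0.0659, adjusted p = 0.0012) for shFTO. EIF4E3, another cap-binding member of the family (chr3:71675416-71754773), read 48.0, 47.9, 43.8 and 43.1 TPM with DMSO, 60.8, 59.8 and 50.6 with CS2, 57.1, 60.2 and 59.0 in shNS and 70.7, 77.4 and 63.1 in shFTO. Its rise with CS2 (log2 fold change 0.31, adjusted p = 0.000948) did not pass after median-of-ratios (adjusted p = 0.165) or quantile normalization (adjusted p = 0.352), and that with shFTO (log2 fold change 0.25, adjusted p = 0.00998) did not pass without shFTO replicate 2 (adjusted p = 0.0599).

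The scaffold EIF4G1 (chr3:184314495-184335358) stood at 449, 447, 437 and 454 TPM with DMSO, 358, 356 and 399 with CS1 and 281, 277 and 312 with CS2, in falling steps without overlap. The changes were -0.27 (SE 0.0844, adjusted p = 0.0145) and -0.62 (SE 0.0844, adjusted p = 7.17e-06), the former not passing without CS1 replicate 1 or 2 (adjusted p = 0.0569 and 0.0594). With the hairpin it fell from 254, 259 and 251 to 185, 173 and 242 TPM (log2 fold change -0.36, adjusted p = 0.00331), and shFTO replicate 3 lies well above its partners. EIF4G3, the paralogous scaffold (chr1:20806292-21176888), went the other way in the hairpin cells, from 49.4, 52.8 and 52.6 to 62.8, 65.3 and 70.0 TPM (log2 fold change 0.35, SE 0.0461, adjusted p = 1.37e-05), and fell from 73.7, 70.7, 66.2 and 69.2 to 57.9, 55.4 and 56.1 TPM with CS2 (log2 fold change -0.30, SE 0.0432, adjusted p = 1.27e-05). The EIF4G1 to EIF4G3 ratio of TPM was accordingly 4.76 to 5.14 in shNS and 2.65 to 3.46 in shFTO. EIF4G2, a scaffold that lacks the eIF4E site, read 647 ± 17.7 TPM with DMSO and 601 ± 8.55 with CS2 and did not pass as deposited (log2 fold change -0.10, adjusted p = 0.114). It passed as lower after median-of-ratios (-0.33, adjusted p = 0.000249) and quantile normalization (-0.14, adjusted p = 0.00665).

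The helicase paralogues differed as well. EIF4A1 (chr17:7572706-7579005) stood at 906, 909, 979 and 992 TPM with DMSO, 812, 828 and 892 with CS1 and 585, 609.7 and 630.5 with CS2. It stood at 785, 818 and 806 in shNS and 514, 505 and 608 in shFTO. It fell with CS2 (log2 fold change -0.64, SE 0.0589, adjusted p = 1.07e-07) and shFTO (log2 fold change -0.57, SE 0.0630, adjusted p = 2.33e-06). The smaller fall with CS1 (log2 fold change -0.17, adjusted p = 0.0292) did not pass without DMSO replicate 3 or 4 or CS1 replicate 1 or 2 (adjusted p from 0.0726 to 0.118). A read-through entry that joins SENP3 and EIF4A1 held 58.5 to 123 TPM, and reads of the overlap may be split between the entries. EIF4A2 fell from 305, 303, 295 and 287 to 142, 136 and 127 TPM with CS2 (log2 fold change -1.13, SE 0.0501, adjusted p = 2.48e-11) and was alike in range in shNS (375, 389 and 395 TPM) and shFTO (396, 415 and 353 TPM). The EIF4A1 to EIF4A2 ratio was 2.97 to 3.46 with DMSO, 4.13 to 4.95 with CS2, 2.04 to 2.1 in shNS and 1.22 to 1.72 in shFTO. EIF4A3, the related helicase of the exon junction complex (chr17:80135214-80147183), rose with CS2: it read 191, 194, 194 and 195 TPM with DMSO, 222, 216 and 209.6 with CS1 and 266, 261 and 266 with CS2 (log2 fold change 0.45, SE 0.0403, adjusted p = 7.91e-08), a rise that passed under each scaling. The rise with CS1 (log2 fold change 0.16, adjusted p = 0.00437) did not pass after median-of-ratios (0.027, adjusted p = 0.636) or quantile normalization (0.046, adjusted p = 0.254). In the hairpin pair it fell from 160.3, 172 and 165 to 123, 122 and 138 TPM (log2 fold change -0.37, SE 0.0431, adjusted p = 3.5e-06).

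EIF4B, the cofactor that stimulates the eIF4A helicase, had one of the deepest falls with CS2, from 289, 289.7, 295 and 303 to 119, 117 and 109.8 TPM (log2 fold change -1.34, SE 0.0386, adjusted p = 3.74e-13). CS1 took it to 224, 229.7 and 234 TPM (log2 fold change -0.36, SE 0.0386, adjusted p = 2.06e-06), between the other groups. In the hairpin cells it rose from 359.8, 372 and 377 to 421, 429.6 and 388 TPM (log2 fold change 0.16, adjusted p = 0.00427), which did not pass after median-of-ratios (0.11, adjusted p = 0.0631).

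EIF4EBP1, the inhibitor that holds eIF4E until mTORC1 phosphorylates it, was 313, 319, 334 and 353 TPM with DMSO, 332, 325 and 323 with CS1 and 237, 242 and 255 with CS2. CS1 lies inside the DMSO range (log2 fold change -0.011, adjusted p = 0.872) and CS2 below it (log2 fold change -0.43, SE 0.0486, adjusted p = 1.09e-06). With the hairpin it fell from 354, 368 and 366 to 211, 196 and 228 TPM (log2 fold change -0.78, SE 0.0520, adjusted p = 1.6e-08), while its paralogue EIF4EBP2 rose from 83.5 ± 2.12 to 101 ± 2.71 TPM (log2 fold change 0.27, adjusted p = 0.0018). The EIF4EBP1 to EIF4EBP2 ratio was 4.31 to 4.37 in shNS and 1.91 to 2.25 in shFTO, without overlap. EIF4EBP3, the scarcest of the 3 paralogues, read 5.38, 3.52, 4.63 and 4.68 TPM with DMSO and 2.97, 1.65 and 2.84 with CS1 (log2 fold change -0.68, SE 0.202, adjusted p = 0.0105), a call lost without CS1 replicate 2 (adjusted p = 0.0706). An entry that joins ANKHD1 with EIF4EBP3 held 12.9 to 36.4 TPM, so reads of this gene may be split.

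The group of eIF2, which carries the initiator tRNA, was counted with the eIF2-like genes EIF2A and EIF2D. Of these 5 genes 4 fell and 1 rose with CS2. With shFTO 2 fell and 1, the eIF2-like EIF2A, rose. The gene that rose with CS2 was EIF2S2, which stood at -0.077 after median-of-ratios. EIF2S1, the alpha subunit that stress kinases phosphorylate (chr14:67359997-67386516), was 140.2, 141, 139.9 and 142 TPM with DMSO, 151, 152 and 152 with CS1 and 128, 127 and 126 with CS2. These are narrow, separate groups. CS1 did not pass (log2 fold change 0.11, adjusted p = 0.128) in the fit of all 5 groups and did when the compared groups were fitted alone (adjusted p = 0.00295), and the sign turned after either rescaling. CS2 passed as lower (log2 fold change -0.15, adjusted p = 0.0249), by -0.37 after median-of-ratios, though as deposited not without CS2 replicate 2 (adjusted p = 0.0536) or 3 (0.064). With the hairpin EIF2S1 fell from 99.6, 103 and 102 to 54.0, 53.4 and 66.8 TPM (log2 fold change -0.80, SE 0.0594, adjusted p = 4.34e-08). The beta subunit gene EIF2S2 fell with it (log2 fold change -0.21, adjusted p = 2.21e-05) and the gamma subunit gene EIF2S3, at 401 ± 13.1 and 408 ± 6.33 TPM, did not pass. With CS2 the balance differed, EIF2S3 going from 449 ± 4.34 to 333 ± 20.8 TPM (log2 fold change -0.43, adjusted p = 4.04e-08).

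EIF2A, a separate protein that can also bring initiator tRNA (chr3:150546678-150584242), fell from 119, 119, 120.2 and 117 TPM with DMSO to 84.4, 86.1 and 92.7 with CS1 (log2 fold change -0.43, SE 0.0487, adjusted p = 3.1e-06) and 59.0, 58.0 and 53.8 with CS2 (log2 fold change -1.05, SE 0.0487, adjusted p = 4.28e-11). In the hairpin cells it rose from 112, 121 and 120.4 to 136, 147 and 128 TPM (log2 fold change 0.22, SE 0.0521, adjusted p = 0.00231). EIF2D, another tRNA-binding factor (chr1:206571292-206612463), was 46.6, 49.7, 51.2 and 50.7 with DMSO, 58.5, 58.2 and 60.2 with CS1 and 46.4, 42.4 and 46.3 TPM with CS2. Its rise with CS1 (log2 fold change 0.25, adjusted p = 0.000134) did not pass after median-of-ratios (adjusted p = 0.0834) or quantile normalization (adjusted p = 0.0708), and its fall with CS2 (log2 fold change -0.14, adjusted p = 0.00735) did not pass without CS2 replicate 2 (adjusted p = 0.0578).

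The exchange factor eIF2B, which recharges eIF2 with GTP, had 4 of its 5 genes lower with shFTO (3 after quantile normalization). With CS2, 1 fell and 2 rose as deposited, but 4 fell and none rose after either rescaling. EIF2B1, the regulatory alpha subunit gene, turned from a rise with CS2 (log2 fold change 0.093, adjusted p = 0.0494) to a fall after median-of-ratios (-0.13, adjusted p = 0.0377) and quantile normalization (-0.12, adjusted p = 0.011). As deposited its rise did not pass without DMSO replicate 1, 2 or 4 or without any 1 of the CS2 libraries (adjusted p from 0.0505 to 0.185). It was singled out after its values were seen. EIF2B5, the catalytic subunit (chr3:184135038-184146112), read 93.7, 95.2, 101 and 98.5 TPM with DMSO, 82.1, 82.7 and 86.1 with CS1 and 61.9, 63.1 and 64.8 with CS2, stepwise lower. The log2 fold changes were -0.21 (SE 0.0338, adjusted p = 9.68e-05) and -0.61 (SE 0.0338, adjusted p = 3.13e-10). In the hairpin pair it was 91.6, 87.1 and 91.2 and 82.7, 81.4 and 85.1 TPM (log2 fold change -0.11, adjusted p = 0.0143), a call lost without shNS replicate 1 or 3 or shFTO replicate 2 (adjusted p from 0.0536 to 0.0556) and after quantile normalization (adjusted p = 0.17). An antisense entry at this gene held 23.4 to 42.2 TPM, and whether the counting used strand is not given in the sources used here. EIF2B3, another subunit of the exchange factor, fell with the hairpin from 39.3, 40.7 and 40.5 to 23.4, 22.2 and 26.1 TPM (log2 fold change -0.73, SE 0.0533, adjusted p = 3.84e-08). With CS2 it did not pass as deposited (log2 fold change -0.079, adjusted p = 0.164) and passed as lower after median-of-ratios (-0.30, adjusted p = 8.69e-05) and quantile normalization (-0.30, adjusted p = 7.28e-05).

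Of the 5 genes for the small factors that watch over the start codon, 3 rose and 1 fell with CS2, 2 rose and 2 fell with CS1, and 1 rose and 3 fell with shFTO. After either rescaling 1 rose and 2 fell with CS2. EIF1, which holds the ribosome in its scanning state (chr17:41688885-41692668), was 429, 438, 479.5 and 493 TPM with DMSO, 675, 665 and 652 with CS1 and 516, 524 and 571 with CS2. It was 495, 501 and 495 in shNS and 663, 673 and 539 in shFTO. It rose with CS1 (log2 fold change 0.53, SE 0.0681, adjusted p = 1.16e-05) and shFTO (log2 fold change 0.32, SE 0.0728, adjusted p = 0.00147) under each scaling. The rise with CS2 (log2 fold change 0.22, adjusted p = 0.00796) passed as deposited but not after median-of-ratios (adjusted p = 0.982) or quantile normalization (adjusted p = 0.125). Its paralogue EIF1B (chr3:40309684-40312424) rose from 99.8, 98.5, 104 and 102 TPM with DMSO to 129, 122 and 119.6 with CS1 (log2 fold change 0.29, SE 0.0444, adjusted p = 7.19e-05) and 143, 136 and 135 with CS2 (log2 fold change 0.45, SE 0.0444, adjusted p = 2.52e-07), under each scaling, and did not pass with the hairpin (log2 fold change -0.042, adjusted p = 0.469). EIF1AD (chr11:65996545-66002176), which resembles eIF1A, read 34.9, 34.2, 36.6 and 35.0 with DMSO and 42.6, 43.6 and 42.6 TPM with CS2 (log2 fold change 0.28, adjusted p = 2.74e-05), not passing after either rescaling (adjusted p = 0.171 and 0.117). It fell with the hairpin from 24.7, 27.3 and 26.8 to 21.8, 22.8 and 23.6 TPM (log2 fold change -0.20, adjusted p = 0.00175). EIF1AX, the eIF1A gene itself, fell from 79.6 ± 0.543 to 59.0 ± 7.86 TPM with the hairpin (log2 fold change -0.43, adjusted p = 6.18e-05).

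In the group made of the joining factor EIF5B and of EIF6, 2 of 2 genes fell with CS2 and with shFTO. EIF6, which keeps the ribosomal subunits apart until they are ready (chr20:35278911-35284985), was 151, 158, 169 and 169 TPM with DMSO, 189, 184 and 192 with CS1 and 106, 110.4 and 115 with CS2. It was 149.7, 148 and 146 in shNS and 95.7, 90.7 and 109 in shFTO. It stood highest with CS1, whose rise (log2 fold change 0.22, adjusted p = 0.0047) did not pass after median-of-ratios (adjusted p = 0.322) or quantile normalization (adjusted p = 0.062), and fell with CS2 (log2 fold change -0.55, SE 0.0559, adjusted p = 3.33e-07) and shFTO (log2 fold change -0.59, SE 0.0598, adjusted p = 1.07e-06). EIF5B, the joining GTPase, fell from 187 ± 16.4 to 116 ± 2.08 TPM with CS2 (log2 fold change -0.69, adjusted p = 1.18e-05) and from 160.3 ± 3.02 to 97.9 ± 18.9 TPM with shFTO (log2 fold change -0.72, adjusted p = 3.01e-05).

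The eIF5A paralogues changed in opposite directions in each comparison with a control. EIF5A, the hypusine-bearing factor that helps the ribosome through difficult sequences (chr17:7306999-7312463), was 1018, 1031, 1103 and 1146 TPM with DMSO, 752, 755 and 909.5 with CS1 and 623, 637 and 652 with CS2. It was 805, 834 and 838 in shNS and 442, 419 and 583 in shFTO. Replicate 3 is the highest of the CS1 and of the shFTO libraries, and neither reaches its controls. The falls were -0.42 (SE 0.0927, adjusted p = 0.00147) with CS1, -0.75 (SE 0.0927, adjusted p = 2.7e-06) with CS2 and -0.79 (SE 0.0991, adjusted p = 7.95e-06) with shFTO. EIF5A2 (chr3:170888415-170908693), the scarcer paralogue, was 14.1, 13.3, 12.7 and 13.7 TPM with DMSO, 19.5, 20.2 and 17.5 with CS1 and 34.8, 33.7 and 30.8 with CS2. It was 12.6, 12.8 and 13.0 in shNS and 16.1, 18.9 and 16.1 in shFTO. Every treated library lies above its controls, with rises of 0.47 (SE 0.0643, adjusted p = 2.08e-05), 1.24 (SE 0.0643, adjusted p = 1.44e-10) and 0.38 (SE 0.0687, adjusted p = 0.000223), under each scaling. The EIF5A to EIF5A2 ratio of TPM was 72.4 to 86.6 with DMSO, 37.4 to 52.0 with CS1, 17.9 to 21.2 with CS2, 64.2 to 65.1 in shNS and 22.2 to 36.3 in shFTO, with no overlap between a treatment and its control. EIF5AL1, an intronless copy of EIF5A at 4.83 ± 0.135 TPM with DMSO, may hold misassigned EIF5A reads. The pseudogene EEF1DP3 (chr13:31952580-31953361) was 5.57, 6.33, 5.56 and 6.19 TPM with DMSO and 9.21, 7.67 and 7.82 with CS2. Its rise (log2 fold change 0.42, adjusted p = 0.0239) did not pass after either rescaling (adjusted p = 0.189 and 0.223) or without DMSO replicate 1 or 3 or CS2 replicate 1 (adjusted p from 0.0507 to 0.0986).

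**Figure D5:**
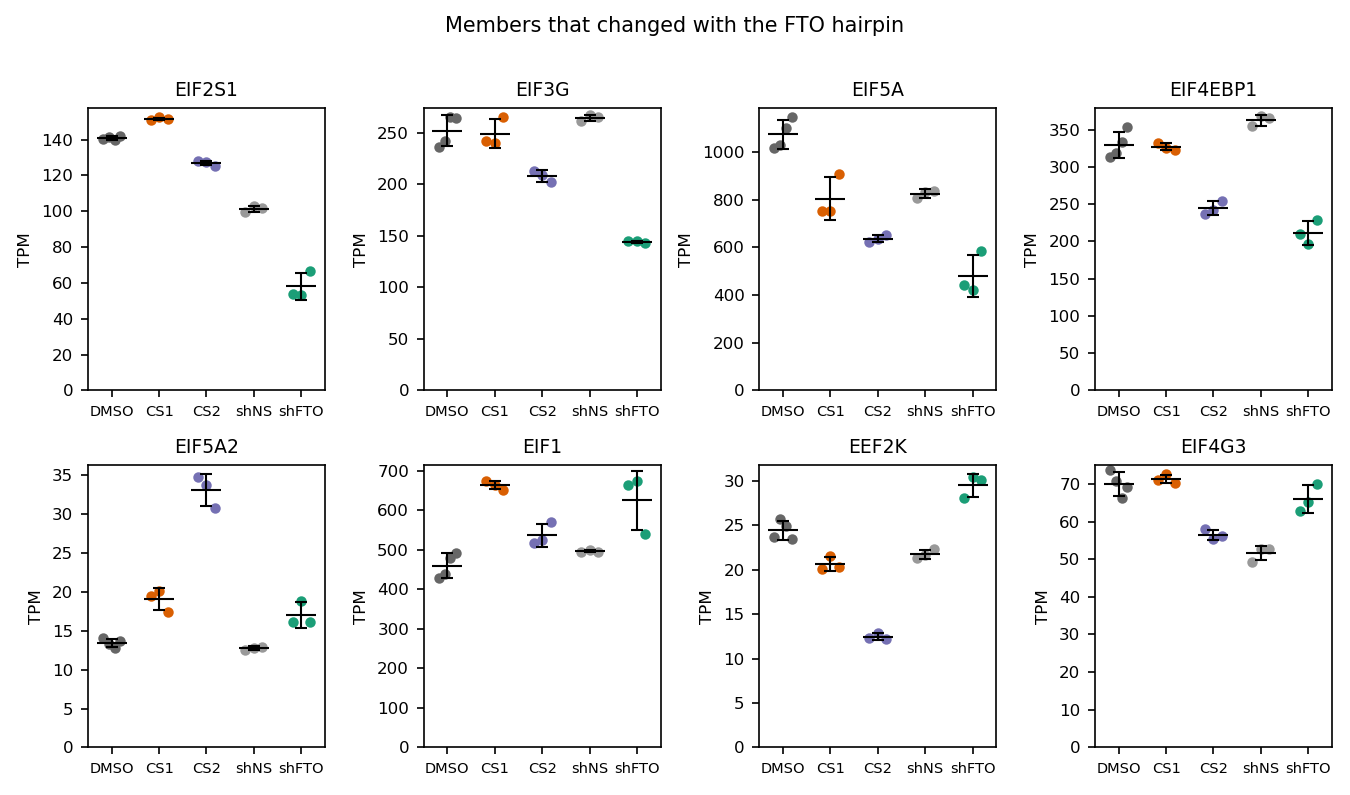
TPM per library (y axis, from 0) in the 5 groups (x axis) of 8 genes that changed with the FTO hairpin; points are libraries, bars the mean and SD. EIF2S1, EIF3G, EIF5A and EIF4EBP1 are lower in shFTO than in shNS, and EIF5A2, EIF1, EEF2K and EIF4G3 are higher.

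Set directly against each other, at doses that differ, CS1 libraries were above CS2 libraries for 38 of the 58 genes and below for 11, where 26.2% of all entries were higher and 40.4% lower. After median-of-ratios the split was 41 and 7, and after quantile normalization 43 and 8. The elongation factors were higher with CS1 in 5 of 5 cases (median 0.99), the eIF3 genes in 11 of 14 (median 0.40) and none of either group was lower. EIF3CL differed by 2.13 (SE 0.0548, adjusted p = 6.13e-13), EEF1A1 by 1.97 (SE 0.0392, adjusted p = 6.45e-14), EEF1D by 1.51 (SE 0.0610, adjusted p = 3.42e-11) and EIF3F by 1.24 (SE 0.0462, adjusted p = 1.51e-11). In the other direction EIF5A2 differed by -0.77 (SE 0.0687, adjusted p = 1.51e-07), EIF1AD by -0.38 (SE 0.0459, adjusted p = 3.55e-06), EIF4A3 by -0.29 (SE 0.0431, adjusted p = 2.88e-05) and EIF4E3 by -0.29 (SE 0.0752, adjusted p = 0.00332). For EIF4E the difference was -0.12 (adjusted p = 0.132), with overlapping libraries.

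The comparisons of CS1 and CS2 with solvent share the DMSO libraries, whereas the hairpin pair has its own control, so the response to each compound was also tested against the response to the hairpin. The CS1 response differed from the hairpin response for 34 genes (49.4% of all entries did) and the CS2 response for 37 (63.4%). The CS1 response was higher for 28 genes and lower for 6 (31% and 18.3% of all entries), 20 and 8 after median-of-ratios and 21 and 10 after quantile normalization. The CS2 response was higher for 17 and lower for 20 (39.8% and 23.7% of all entries), 13 and 23 after median-of-ratios and 12 and 27 after quantile normalization. All 5 elongation factors were among those lower in the CS2 response, from -0.91 for EEF2 to -1.81 for EEF1A1.

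Some genes passed in opposite directions, and for each of these the difference itself passed. Choosing genes in this way makes a pass of the difference nearly certain, so it adds no separate evidence. EEF1G, EEF2K, EIF2A and EIF4B fell with CS1 and rose with the hairpin, and with EIF4G3 added the same holds for CS2. The CS2 response minus the hairpin response was -1.50 (adjusted p = 1.99e-11) for EIF4B, -1.40 (adjusted p = 4.71e-11) for EEF1G, -1.34 (adjusted p = 2.64e-10) for EEF2K, -1.27 (adjusted p = 1.01e-09) for EIF2A and -0.65 (adjusted p = 3.25e-07) for EIF4G3. EIF1AD, EIF2B2, EIF2S2 and EIF4A3 rose with CS2 and fell with the hairpin, although of these 4 EIF4A3 alone rose under all 3 scalings, and EIF2B2 did not pass with the hairpin without shNS replicate 2 or 3 or shFTO replicate 1 (adjusted p from 0.0579 to 0.065). EIF4A3 differed by 0.82 (adjusted p = 1.3e-08). With CS1, 9 genes rose that fell with the hairpin, among them EIF3CL (difference 0.88, adjusted p = 2.95e-07), EIF6 (difference 0.80, adjusted p = 1.69e-06) and EIF3K (difference 0.74, adjusted p = 1.28e-08). None of these 9 rises with CS1 held under all 3 scalings, and that of EIF3K did not pass without DMSO replicate 1 or 2 or CS1 replicate 3 (adjusted p from 0.0504 to 0.102). Among the 26 genes that fell with both CS2 and the hairpin the size still differed for 13, EIF3G and EIF4EBP1 falling further with the hairpin by 0.60 and 0.35 on the log2 scale (adjusted p = 1.1e-06 and 0.000525). Of the 16 that fell with both CS1 and the hairpin it differed for 8. These joint counts of directions were made for the translation factors alone. Whether such shared or opposite directions are more or less frequent here than among all tested entries was not tested. For EIF4E the responses differed by -0.081 (adjusted p = 0.482) and 0.036 (adjusted p = 0.755).

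Other genes of the translation cycle were taken from lists by role, and their counts stand beside the shares of all tested entries given above: 24.6% fell and 49.5% rose with CS2, 24.5% and 31.9% with shFTO, and 14.3% and 37.5% with CS1. Of 7 tested genes for release and recycling 5 fell and 2 rose with CS2, 5 fell and 1 rose with shFTO, and 2 fell and 1 rose with CS1 (4 and 0 after either rescaling). ABCE1, which splits the ribosome after termination, went from 139 ± 1.53 to 75.0 ± 3.67 TPM (log2 fold change -0.88, adjusted p = 3.23e-10) with CS2, and GSPT1, the release factor eRF3a, from 65.1 ± 2.62 to 46.7 ± 4.14 TPM (log2 fold change -0.47, adjusted p = 5.04e-06) with shFTO. Among 9 enzymes that modify eIF5A or eEF2, 7 fell and 1 rose with CS2, 6 fell with shFTO and 5 fell with CS1. DHPS, the first enzyme of hypusine synthesis on eIF5A, went from 95.5 ± 2.57 to 65.9 ± 0.717 TPM (log2 fold change -0.53, adjusted p = 3.71e-10) with CS2, and DPH5, of the diphthamide pathway that modifies eEF2, from 15.2 ± 1.29 to 5.06 ± 0.241 TPM (log2 fold change -1.42, adjusted p = 1.15e-09). DPH2 of that pathway went from 33.2 ± 0.927 to 21.3 ± 1.35 TPM (log2 fold change -0.62, adjusted p = 2.5e-05) with shFTO. Of 9 mitochondrial translation factors 7 fell with CS2. With shFTO 4 fell and 1 rose (6 and 5 fell after median-of-ratios and quantile normalization), and with CS1 3 fell and 1 rose (5 and 6 fell). MRRF, the mitochondrial ribosome recycling factor, went from 33.6 ± 1.31 to 13.0 ± 0.813 TPM (log2 fold change -1.31, adjusted p = 1.36e-12) with CS2, and GFM1, a mitochondrial elongation factor, from 72.3 ± 2.69 to 41.7 ± 3.35 TPM (log2 fold change -0.78, adjusted p = 6.78e-09) with shFTO.

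Of 8 tested genes around eIF2 phosphorylation 5 rose and 2 fell with CS2 (3 and 3 after either rescaling), 4 rose and 1 fell with shFTO and 3 rose and none fell with CS1 (3 and 3 after either rescaling). The 3 of 8 that rose with CS1 stand beside 37.5% of all entries, and the 5 of 8 with CS2 stand beside 49.5%. PPP1R15A, the stress-induced phosphatase subunit that restores eIF2, went from 48.9 ± 5.65 to 144 ± 2.45 TPM (log2 fold change 1.55, adjusted p = 2.47e-09) with CS1, from 48.9 ± 5.65 to 245 ± 34.1 TPM (log2 fold change 2.3, adjusted p = 5.09e-12) with CS2 and from 42.0 ± 2.53 to 81.5 ± 2.85 TPM (log2 fold change 0.94, adjusted p = 8.08e-07) with shFTO. IMPACT, an inhibitor of the kinase GCN2, went from 11.7 ± 0.356 to 2.47 ± 0.214 TPM (log2 fold change -1.87, adjusted p = 4.23e-13) with CS2. EIF2AK3, the kinase PERK, went from 15.1 ± 0.512 to 23.2 ± 0.977 TPM (log2 fold change 0.59, adjusted p = 5.85e-07) with shFTO. Among 12 partners of the cap, the helicase and the poly(A) tail 7 fell and 3 rose with CS2 (10 and 2 after median-of-ratios), 4 fell and 1 rose with shFTO (2 and 4 after quantile normalization), and 1 fell and 4 rose with CS1 (6 and 0 after median-of-ratios). PABPC4, a poly(A)-binding protein, went from 182 ± 8.10 to 71.3 ± 1.65 TPM (log2 fold change -1.34, adjusted p = 3.84e-13) with CS2, and MKNK2, a kinase of eIF4E, from 89.4 ± 3.24 to 162 ± 3.41 TPM (log2 fold change 0.85, adjusted p = 1.12e-11). NCBP1, a subunit of the nuclear cap-binding complex, went from 43.7 ± 1.09 to 26.1 ± 3.08 TPM (log2 fold change -0.73, adjusted p = 5.04e-06) with shFTO. Of 3 selenocysteine and tRNA-linked genes 3 fell with CS2 and 1 each with CS1 and shFTO.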

How the data were processed

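The authors deposited 1 table of TPM for the 16 libraries, whose columns sum to between 999999.4 and 1000000.8, from which the unit was inferred. RSEM 1.2.31 and GRCh38 are named, per the submitters' processing notes, and the sources used here do not give the aligner, the annotation or the use of strand. No read counts could be recovered from TPM, so no counting interval was computed. Values were taken as log2(TPM + 1). Of 26830 entries, 14951 reached 1 TPM in 3 or more libraries. A limma model (version 3.58.1, R 4.3.3) with 1 mean per group was fitted to them over all 16 libraries, using a mean-variance trend in eBayes. Tests were two-sided, with Benjamini-Hochberg adjustment over all tested entries and a threshold of 0.05. The script was tested on simulated data.

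Genes shown with every library value are 12 listed genes, the 4 largest rises and 4 largest falls that passed in each comparison with a control at a mean of at least 5 TPM, and the 4 largest differences each way between CS1 and CS2. In the other lists, named genes are those with the smallest adjusted p. The genes, lists and tests were chosen with earlier results of these data known. Where nothing says that replicates are separate cultures beyond the word biological, p-values measure the spread between these libraries. Alternatives were a pseudocount of 0.1, no filter, a filter of 5 TPM, median-of-ratios and quantile scaling, no trend, a fit of the compared groups alone, a replicate block and leaving out each library. Gene coordinates come from GENCODE 29 and start sequences from RefSeq. Python 3.11.15, pandas 2.3.3 and matplotlib 3.10.9 were used.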

Additional observations from a re-analysis of the deposited data

Results flagged for a closer look

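The response to a compound differed from the response to the FTO hairpin, by limma's test of the difference between the contrasts, for 34 of the 58 genes with CS1 and for 37 with CS2, where 49.4% and 63.4% of all tested entries did. The CS2 count is close to the share over all entries and is not a trait of these genes. No gene named in the report had a library far from the other 3 in the DMSO group; groups of 3 were not examined in this way.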

How the results depend on the processing

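The scale of the libraries mattered most for the rises. After median-of-ratios and quantile scaling the genes called higher with CS1 numbered 3 and 8 in place of 15, and with CS2 3 and 3 in place of 11. Median-of-ratios also gave 33 lower with CS1 in place of 21, and 7 lower in CS1 against CS2 in place of 11, and quantile scaling gave 10 lower in the CS1 response minus the hairpin response in place of 6. The log2 ratios of summed TPM moved after median-of-ratios from -0.063 to -0.19 (initiation, CS1), -0.44 to -0.66 (initiation, CS2), -0.27 to -0.32 (initiation, shFTO), -0.032 to -0.16 (elongation, CS1) and -1.35 to -1.57 (elongation, CS2). Of the 58 genes 15 turned sign after median-of-ratios with CS1, 5 with CS2 and 3 with shFTO, and 10, 4 and 4 after quantile scaling; of these, those called as deposited were EIF3A, EIF3D and EIF3K with CS1 and EIF2B1 and EIF2S2 with CS2. Among the genes followed singly, EIF2B1 and EIF3D being added after their values were seen, signs turned after median-of-ratios with CS1 for EEF1A1 (-0.075), EIF2S1 (-0.024), EIF3A (-0.020), EIF3D (-0.012) and EIF3K (-0.039), and with CS2 for EIF2B1 (-0.13), EIF2S2 (-0.077) and EIF2AK3 (-0.015). After quantile scaling they turned with CS1 for EEF2 (0.039) and EIF2S1 (-0.0088), and with CS2 for EIF2B1 (-0.12) and EIF2AK3 (-0.034). These scalings differ in construction, and the cause of each change was not tested. Leaving out 1 library at a time gave 12 to 15 higher and 13 to 23 lower with CS1, 9 to 12 and 35 to 38 with CS2, 8 to 9 and 33 to 35 with shFTO, 36 to 39 and 10 to 12 for CS1 against CS2, 24 to 33 and 6 to 8 for the CS1 response minus the hairpin response, and 16 to 22 and 19 to 22 for that of CS2. EIF4EBP1 with CS1 ranged from -0.035 to 0.022 in these fits, being 0.022 without DMSO replicate 4. Same-numbered libraries of a treatment and its control correlated by -0.009 to 0.101 in their deviations from the group means, and those of CS1 and CS2 by 0.085 to 0.219. Differently numbered libraries correlated by -0.124 to 0.086 for a treatment and its control, and by -0.179 to 0.090 for CS1 and CS2. The numbers were not taken to pair the samples, because not every same-numbered pair exceeds 0.1. That cut is arbitrary, and whether a number stands for a shared batch was not tested. With the replicate number as a block, 15 rose and 19 fell with CS1, 11 and 36 with CS2, 9 and 35 with shFTO, 37 and 11 for CS1 against CS2, and 28 and 7, and 18 and 19, for the CS1 and CS2 responses minus that of the hairpin; under this block EIF4EBP1 with CS1 was 0.022 and the fall of EIF2S1 with CS2 did not pass (adjusted p = 0.0506). Apart from leaving out libraries, 1122 of the results recomputed under an alternative kept their direction and side of the threshold, 54 no longer passed, 3 newly passed and 13 turned sign. The unknown depth limits the low genes most, such as EIF3C.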
